A study of Mus musculus with 4 samples.

Results

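Transcripts of 32 genes for subunits of the Polycomb repressive complexes were followed in mouse embryonic stem (ES) cells and in the primed cells formed from them. A gene was taken as a member when its name was given to a probe in the scanner files, and all 32 were found, among 36163 gene names on the array. They had 48 of the 55681 probes, of which 47 were measured on all 4 arrays, and 13 of the genes had more than 1 probe. The study asked how chromatin regulators act in the passage from ground-state to primed pluripotency. Total RNA was hybridised to 4 single-colour arrays, 1 for each group. The ES group was untreated cells of the line E14Tg2A (strain 129/Ola) at day 0, grown with serum and LIF. The ELA group was untreated epiblast-like aggregates of that line, formed over 2 days in a serum-free minimal medium. The AZA group was ELA formed with 5-azacytidine at 50 nM, a cytidine analogue that traps DNA methyltransferases. The CHQ group was ELA formed with 5-carboxy-8-hydroxyquinoline at 100 µM, which inhibits demethylases of histone lysines. RNA of 3 experiments was pooled for every array. There was thus 1 value per group, no replicate spread and no test, and each difference describes these pools.

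Polycomb proteins keep developmental genes silent through 2 complexes. Polycomb repressive complex 2 (PRC2) methylates lysine 27 of histone H3 through EZH1 or EZH2, and its accessory subunits steer it to CpG islands. Polycomb repressive complex 1 (PRC1) ubiquitinates histone H2A through RING1 or RNF2; its canonical forms read the methyl mark through CBX proteins, whereas its variant forms carry RYBP or YAF2 in their place. In ES cells both complexes occupy the promoters of many developmental regulators.

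The probes of the 7 genes that were called in at least 2 comparisons, and that of Suz12's partner Ezh2 for reference, fix what was measured. The bases below are the first 30 of each 60-base probe, written 5′ to 3′ in lower case as the files list it, at its position in build mm9 as the files give it. Whether these positions are coding or untranslated was not determined here.
Ezh2 (chr6:47480307-47480366, minus strand): gctgcaaagtgttttgtaccagtgagtttt
Eed (chr7:97103264-97103323, minus strand): agtgatgttcacattgtttacattctttgt
Suz12 (chr11:79847251-79847310, plus strand): tgtcatttcttaaagcagttatgctcttaa
Phf19 (chr2:34749588-34749646, minus strand): gtcaaatttgtggcttcctgttggcttcag
Cbx2 (chr11:118892363-118892422, plus strand): ccttttattttactggttacgtcagtccca
Phc1 (chr6:122268043-122268102, minus strand): agtctcactgtggctgtagctcagttttct
Scmh1 (chr4:120202421-120202480, plus strand): atttcagaagacactgccctagggcacttc
Yaf2 (chr15:93115295-93115354, minus strand): cctcttaatgcacctgctggtacttggtgt

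The values are log2 intensities after background correction and quantile normalisation over the 4 arrays. A gene was called higher or lower when the difference was at least 1 on the log2 scale, the mean level of the pair of arrays reached 7.5 and 1 or both arrays had the probe flagged as well above background. Of the 32 members, 31 had a main probe well above background on all arrays, and 30 could be called in every comparison. The main probe of Pcgf3 was too dim in every comparison, and Cbx8 could be called only between CHQ and ELA. Repeated spots of a probe within an array had a pooled SD of 0.13 to 0.16, which gives a spread of 0.21 for a difference and covers reading error alone. ES and ELA lay on 1 slide and AZA and CHQ on a second one. The share of spots well above background was 60.6% and 55.1% on the former and 69.1% and 69.2% on the latter, with a median local background of 59 and 77 against 14 and 13 intensity units. Treatment and slide therefore cannot be told apart in AZA against ELA or CHQ against ELA, which also share the ELA control, whereas ELA against ES and CHQ against AZA lie within a slide. The cell states followed their labels: all 6 ground state markers were called lower in ELA than in ES, and of the 2 priming markers Fgf5 differed by 2.87 and Eomes by 0.56, which was not called. With AZA 6 and with CHQ 5 of those 6 were called higher than in ELA. Of 7 markers of other lineages, 3 could be called between ELA and ES and 0 were, Krt18 was called lower with AZA (-1.5) and CHQ (-2.25), and Sox17 was called higher with CHQ (9.51, against 6.77 in ELA, under the level of 7.5). The part of these shifts in the results was not tested.

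**Figure D1:**
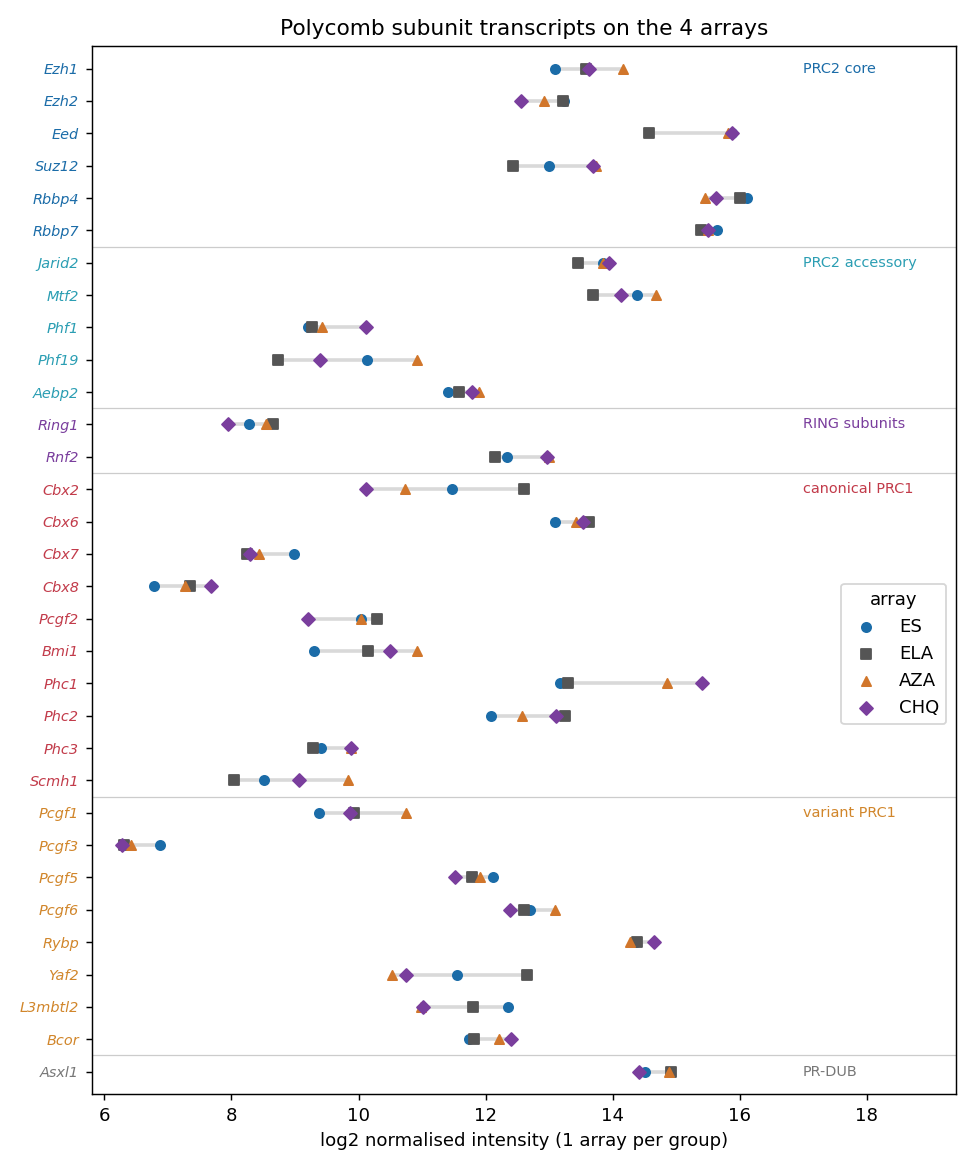
Level of each of the 32 members at its main probe on the ES, ELA, AZA and CHQ arrays (x axis, log2 normalised intensity; 1 point per array; colours of the gene names mark the subunit group). Points may be compared along a row but not between rows, since probes differ in brightness; Eed and Phf19 were lowest in ELA, while Cbx2 and Yaf2 were highest there.

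The comparison of ELA with ES asked which subunits differ between the primed cells and ES cells grown with serum and LIF. Transcripts of Eed and Phf19 were lower in ELA, by 1.30 and 1.40, and those of Cbx2, Phc2 and Yaf2 were higher, by 1.14, 1.16 and 1.09. So 5 of 30 members were called, beside 10.1% of all 18916 genes that could be called. The 3 higher members stand beside 4.47% of all genes and the 2 lower ones beside 5.6%. Both lower members belong to PRC2 and all 3 higher ones to PRC1, but the members called lower under spike-in scaling included Cbx7 and L3mbtl2 of PRC1. Spike-in scaling lowered Cbx2, Phc2 and Yaf2 to 0.54, 0.56 and 0.48. Under that scaling to 7 spike-in probes the split became 0 higher and 7 lower, since it moved the median of all genes that could be called from -0.02 to -0.60. The median of the 32 members was -0.00 in the main values, -0.13 under 75th percentile scaling and -0.68 under spike-in scaling, so these directions are relative to the bulk of transcripts.

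The comparison of AZA with ELA asked what changes when DNA methylation is inhibited during aggregate formation. Eed (1.24), Suz12 (1.30), Phf19 (2.19), Phc1 (1.56) and Scmh1 (1.80) were called higher with AZA, and Cbx2 (-1.88) and Yaf2 (-2.11) were called lower. Spike-in and 75th percentile scaling lowered Eed to 0.77 and 0.93. These 7 of 30 members stand beside 25.7% of all 19117 genes, the 5 higher ones beside 14.3% and the 2 lower ones beside 11.4%. The share of members called was therefore near that of all genes. Mtf2 lay just under the threshold at 0.99, and the authors' value table counts 8 members, 6 of them higher. Spike-in scaling gave 4 higher and 4 lower members. The median of the 32 members was 0.17 beside -0.04 for all genes measured on the 4 arrays. Under spike-in scaling it was -0.08 beside -0.66. For genes that could be called, which leaves out dim ones, the reference medians were -0.07 and -0.44.

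The comparison of CHQ with ELA asked the same of histone demethylase inhibition. Eed (1.31), Suz12 (1.27), Phc1 (2.11) and Scmh1 (1.02) were called higher with CHQ, and Cbx2 (-2.49), Yaf2 (-1.90) and Pcgf2 (-1.09) were called lower. Spike-in scaling lowered Eed, Suz12 and Scmh1 to 0.46, 0.71 and 0.51, and 75th percentile scaling lowered Eed to 0.80. These 7 of 31 members stand beside 26.7% of all 19131 genes, the 4 higher ones beside 14.8% and the 3 lower ones beside 11.9%. Spike-in scaling gave 1 higher and 8 lower members, and 75th percentile scaling gave 3 of each. The median of the 32 members was 0.08 beside -0.04 for all measured genes. It was -0.07 beside -0.47 under 75th percentile scaling and -0.48 beside -0.89 under spike-in scaling. For genes that could be called, the reference medians were -0.09, -0.25 and -0.66.

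The comparison of CHQ with AZA, within a slide, set the inhibitors against each other. Phf19 was called lower with CHQ (-1.53), and no other member was called. This 1 of 30 members stands beside 10.4% of all 19156 genes, with 4.82% lower and 5.56% higher. The members' median was -0.07 beside -0.02 for all measured genes. With the threshold lowered to 1.5-fold, 8, 14, 14 and 8 members were called in the 4 comparisons, beside 23%, 46.3%, 48.9% and 25% of all genes.

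**Figure D2:**
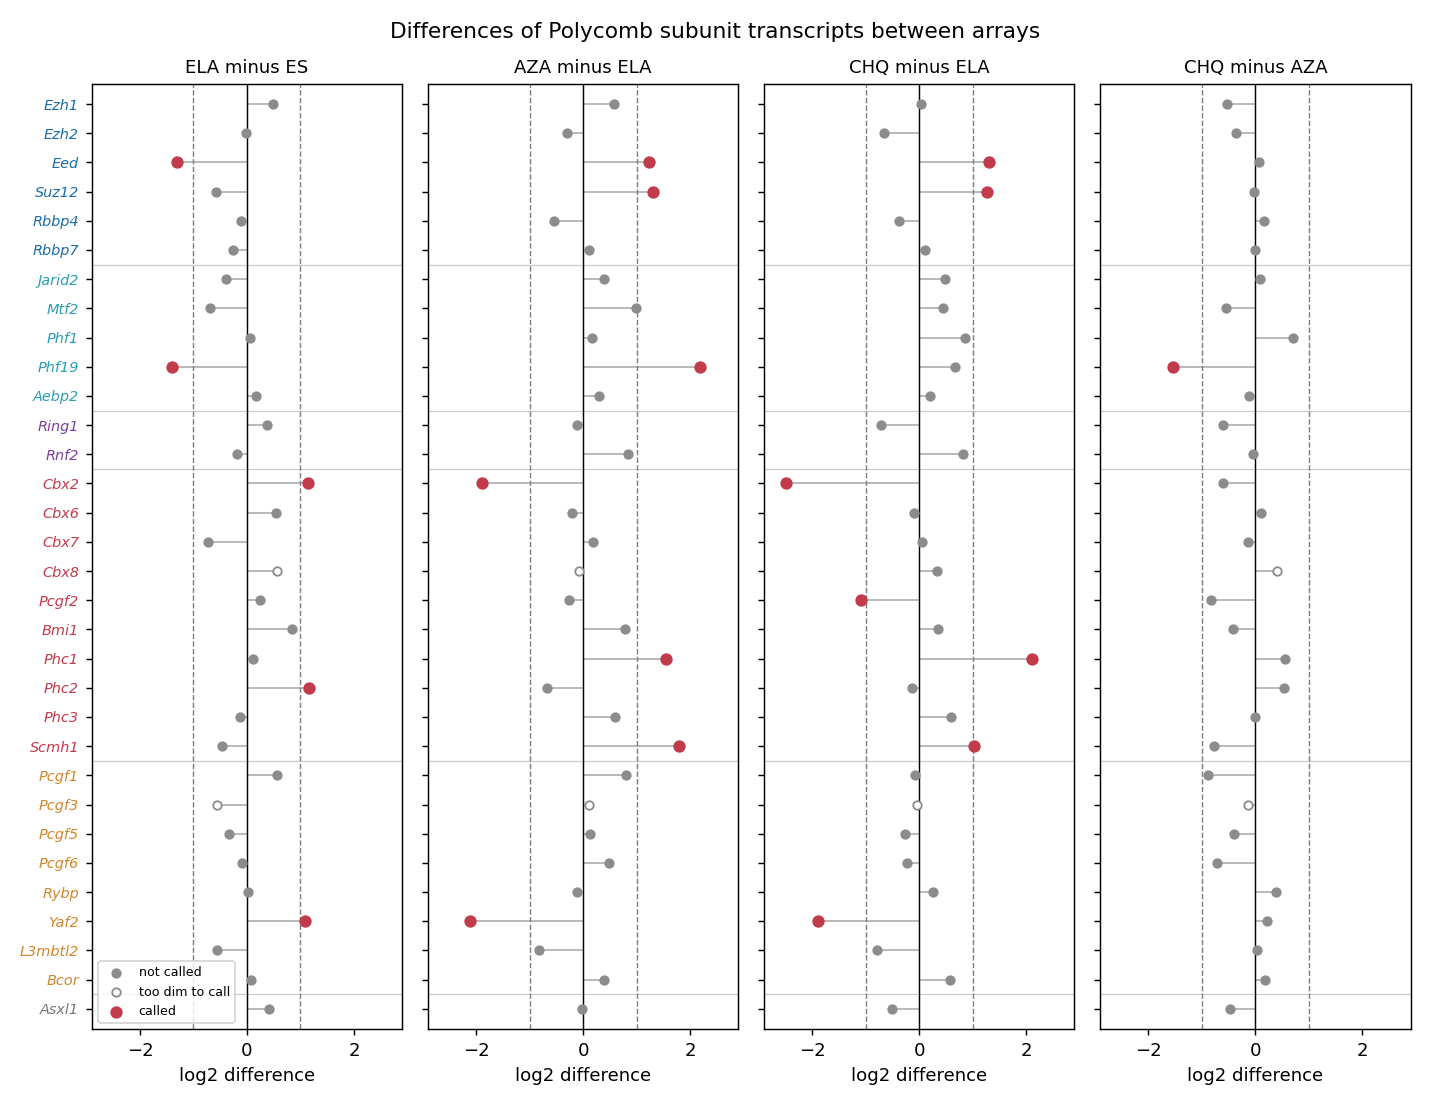
Log2 difference of each member in the 4 comparisons (x axis), with dashed lines at -1 and 1, filled red points for called members and open points for members too dim to call. Eed, Suz12, Phc1 and Scmh1 lie to the right and Cbx2 and Yaf2 to the left with both inhibitors; the 20 calls keep their sign under every scaling tried, though the split of higher and lower members does not.

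The PRC2 core was read first. Eed, whose protein binds trimethylated H3K27 and stimulates the enzyme, had a level of 15.88 on ES, 14.57 on ELA, 15.81 on AZA and 15.89 on CHQ. ELA stood apart from the other 3 arrays, which lay within 0.08 of each other. The level relative to ES depended on the scaling: AZA and CHQ differed from ES by -0.58 and -0.71 under 75th percentile scaling and by -1.29 and -1.61 under spike-in scaling, with ELA lowest under both. The differences were -1.30 for ELA against ES, 1.24 for AZA against ELA and 1.31 for CHQ against ELA, or 2.46-fold, 2.35-fold and 2.48-fold. Suz12 encodes the scaffold that holds the enzyme in the complex. Its level was 13.00 on ES, 12.43 on ELA, 13.73 on AZA and 13.70 on CHQ. ELA was again lowest, but the treated arrays also exceeded ES, by 0.73 and 0.70; under spike-in scaling they differed from ES by -0.27 and -0.57. Suz12 differed by -0.57 between ELA and ES, which was not called.

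The methyltransferase genes were read next. Ezh1 had a level of 13.09 on ES, 13.59 on ELA, 14.16 on AZA and 13.62 on CHQ. Ezh2, the enzyme gene that predominates in dividing cells, had 13.24, 13.22, 12.92 and 12.56 on the same arrays. Neither was called in any of the 4 comparisons. The histone-binding Rbbp4 had 16.12, 16.01, 15.46 and 15.63, and its paralogue Rbbp7 had 15.65, 15.39, 15.50 and 15.50. Rbbp4 was thus lower on both treated arrays, by 0.55 and 0.39, which was below the threshold. Under spike-in scaling Rbbp4 differed from ES by -0.84 in ELA, -1.91 with AZA and -2.09 with CHQ. Both steps from ELA passed the threshold there. The median difference of the 6 core genes was -0.18 for ELA against ES, with 5 of 6 below 0. It was 0.34 for AZA against ELA, but 0.09 under 75th percentile and -0.08 under spike-in scaling. For CHQ against ELA it was 0.07, and it turned to -0.30 and -0.64 under those scalings. The medians of all genes that could be called were -0.20 and -0.44 for AZA under those scalings, and -0.25 and -0.66 for CHQ.

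Of the accessory subunits of PRC2, 3 of 5 were lowest in ELA, although under spike-in scaling Mtf2 and Jarid2 were lowest with CHQ. Phf19 encodes a Polycomb-like protein whose Tudor domain binds methylated H3K36. Its level was 10.13 in ES, 8.73 in untreated ELA, 10.93 with AZA and 9.40 in CHQ. AZA was highest and ELA lowest, but under spike-in scaling AZA and ES differed by less than 0.01 and CHQ lay 0.22 above ELA. Phf19 differed by -1.40 for ELA against ES, by 2.19 (4.58-fold) for AZA against ELA and by 0.66 for CHQ against ELA, the last of which was not called. Mtf2, a second Polycomb-like gene and a CpG island binder, had 14.38, 13.70, 14.69 and 14.14. The order of the arrays was the same as for Phf19 apart from the size of the steps, with AZA 0.99 and CHQ 0.44 above ELA. Under spike-in scaling Mtf2 differed from ES by -0.84 with AZA, so that this order did not hold, and at a second Mtf2 probe it differed from ES by -0.64. Phf1, the remaining Polycomb-like gene, had 9.21, 9.27, 9.42 and 10.12, so that CHQ alone stood apart at this probe, by 0.85 over ELA. Under spike-in scaling, however, CHQ differed from ES by -0.03. A second, dimmer Phf1 probe, not well above background in ELA, gave 0.06 for CHQ against ELA. Jarid2, which helps recruit PRC2 and is a substrate of it, had 13.84, 13.45, 13.85 and 13.94, and Aebp2, a zinc finger cofactor, ranged from 11.42 in ES to 11.89 with AZA. All 5 accessory genes lay above 0 for AZA and for CHQ against ELA, with medians of 0.39 and 0.49. Under spike-in scaling those medians were 0.09 and -0.14, beside -0.44 and -0.66 for all genes that could be called. For ELA against ES the accessory median was -0.39, with 3 of 5 genes below 0.

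The RING subunits, which carry the ubiquitin ligase activity of PRC1, moved apart with CHQ. Ring1 had a level of 8.28 on ES, 8.66 on ELA, 8.54 on AZA and 7.94 on CHQ. Rnf2, the main ligase of ES cells, had 12.34, 12.15, 13.00 and 12.96. Rnf2 was thus higher on both treated arrays than on ELA, by 0.84 and 0.81, and Ring1 was lowest with CHQ, by 0.72 below ELA. Neither was called.

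Canonical PRC1 genes differed in both directions. Cbx2 encodes a chromodomain protein that reads H3K27 methylation and compacts nucleosomes. Its level was 11.47 on ES, 12.61 on ELA, 10.73 on AZA and 10.11 on CHQ. ELA was highest and the treated arrays were below ES as well, by 0.74 and 1.35. The differences from ELA were -1.88 (3.68-fold) for AZA and -2.49 (5.62-fold) for CHQ. The other CBX genes moved less. Cbx7, the main CBX gene of ES cells, had 8.98, 8.25, 8.43 and 8.29, and was highest in ES. Cbx6 had 13.09, 13.63, 13.43 and 13.53, and Cbx8, near the lower limit of the calls, had 6.78, 7.35, 7.27 and 7.68. None of these 3 was called.

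Among the Polyhomeotic genes, whose proteins polymerise through a SAM domain, Phc1 had a level of 13.18 on ES, 13.30 on ELA, 14.85 on AZA and 15.41 on CHQ. Both untreated arrays lay below both treated ones, with differences from ELA of 1.56 (2.94-fold) and 2.11 (4.31-fold). Phc2 had 12.09, 13.25, 12.58 and 13.12. It was lowest in ES, though not under spike-in scaling, where AZA differed from ES by -0.40, and was called higher in ELA at 1.16. Phc3 had 9.41, 9.28, 9.89 and 9.89 and was not called. Scmh1, a SAM and MBT domain protein that joins PRC1, had 8.51, 8.04, 9.84 and 9.06. Scmh1 was lowest in ELA and highest with AZA, with differences from ELA of 1.80 and 1.02.

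The PCGF genes of canonical PRC1 diverged. Pcgf2, also known as Mel18, read 10.05 on ES, 10.29 on ELA, 10.03 on AZA and 9.21 on CHQ. CHQ alone stood apart, at -1.09 from ELA, and a second Pcgf2 probe gave -1.59 there and -1.07 with AZA. Bmi1, its paralogue, had 9.30, 10.15, 10.92 and 10.50, so that ES was lowest. Bmi1 differed from ES by 0.85 in ELA, and a second probe gave 0.70. The median of the 10 canonical genes was 0.40 for ELA against ES, 0.05 for AZA against ELA and 0.19 for CHQ against ELA. Spike-in scaling put all 3 below 0, at -0.23, -0.32 and -0.43. The medians of all genes that could be called were lower still under that scaling, at -0.60, -0.44 and -0.66.

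In variant PRC1, Yaf2 was called lower with both inhibitors. It encodes a RYBP homologue that binds RING proteins. Its level was 11.56 on ES, 12.65 on ELA, 10.53 on AZA and 10.74 on CHQ. ELA was highest. At this probe both treated arrays were below ES, whereas at a second Yaf2 probe they differed from ES by 0.04 and 0.22. The differences were 1.09 for ELA against ES, -2.11 (4.33-fold) for AZA against ELA and -1.90 (3.73-fold) for CHQ against ELA. The second probe gave 1.33, -1.29 and -1.11, so the directions of these 3 were shared and the sizes differed by up to 0.82. Rybp had 14.37, 14.39, 14.27 and 14.65, with all arrays within 0.38.

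The remaining variant genes were not called in the 4 comparisons. L3mbtl2, an MBT domain protein of the complex with PCGF6, read 12.36 on ES, 11.80 on ELA, 10.98 on AZA and 11.01 on CHQ. Both treated arrays were lowest, by 0.82 and 0.79 below ELA, and differed from ES by -1.38 and -1.35. Pcgf1, which pairs with BCOR, had 9.38, 9.94, 10.75 and 9.86, with AZA highest and ES lowest, though under spike-in scaling CHQ was lowest, at -0.45 from ES. Pcgf6 had 12.70, 12.61, 13.09 and 12.38, and Pcgf5 had 12.12, 11.79, 11.91 and 11.51. The main probe of Pcgf3 was well above background on the ES array alone (6.87). A second Pcgf3 probe, with no value kept for AZA, was well above background at 8.04 in ES, 8.03 in ELA and 8.06 with CHQ. Bcor, a corepressor scaffold, had 11.75 in ES, 11.83 in the ELA control, 12.22 with AZA and 12.40 for CHQ. Asxl1, a cofactor of the H2A deubiquitinase BAP1 and so of the PR-DUB complex rather than PRC1, ranged from 14.41 with CHQ to 14.92 in ELA. The median of the 8 variant genes was -0.04 for ELA against ES, 0.12 for AZA against ELA and -0.15 for CHQ against ELA. Under spike-in scaling these were -0.74, -0.30 and -0.69, beside -0.60, -0.44 and -0.66 for all genes that could be called.

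Paralogue pairs were compared by the difference of their changes, which leaves the brightness of the probes aside. Of 15 pairs, 5 changed unequally by at least 1 between ELA and ES, 5 between AZA and ELA, 6 between CHQ and ELA, and 1 between CHQ and AZA. No such share was computed over other pairs of genes, so these counts have no baseline. The pairs are also not independent, since Cbx2, Cbx6 and Cbx8 were all set against the same Cbx7 probe. The pair of Cbx2 and Cbx7 showed the widest contrast for ELA against ES and for CHQ against ELA. Cbx2 changed by 1.87 more than Cbx7 between ES and ELA, while the contrast was -2.07 with AZA and -2.54 with CHQ. Cbx8 and Cbx6 also exceeded Cbx7 between ES and ELA, by 1.30 and 1.27, although Cbx8 was too dim to be called there and its contrast was 1.87 under 75th percentile scaling. Phc2 exceeded Phc1 by 1.05 in ELA against ES and fell behind it by -2.23 with AZA and -2.24 with CHQ, while Phc3 fell behind Phc1 by -1.51 with CHQ. Yaf2 exceeded Rybp by 1.07 and then fell behind it by -2.0 and -2.17. Bmi1 exceeded Pcgf2 by 1.04 under AZA and by 1.44 under CHQ, Ring1 fell behind Rnf2 by -1.52 with CHQ, Phf19 exceeded Mtf2 by 1.20 with AZA, and Phf1 exceeded Mtf2 by 1.25 in CHQ against AZA.

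Ezh1 exceeded Ezh2 by 0.51 between ES and ELA, by 0.87 under AZA and by 0.70 under CHQ, each under the threshold. With the mean over all probes of a gene the AZA contrast was 0.16 and the CHQ contrast 0.22. Against ES the contrast at the main probes was 1.38 for AZA and 1.21 for CHQ. With the mean over probes Ezh1 differed from ES by 0.21 and -0.09 on those arrays, and Ezh2 by -0.32 and -0.68. The Pcgf1 and Pcgf5 contrasts with Pcgf6 were under 1. That of Pcgf3, whose main probe was dim, was -0.47 for ELA against ES but -1.67 under 75th percentile scaling. Of the 17 contrasts of at least 1, all 17 kept their sign under the 7 other ways of computing the values and 15 stayed at 1 or more; the exceptions were Phf1 with Mtf2, down to 0.69, and Phc3 with Phc1, at -0.995.

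**Figure D3:**
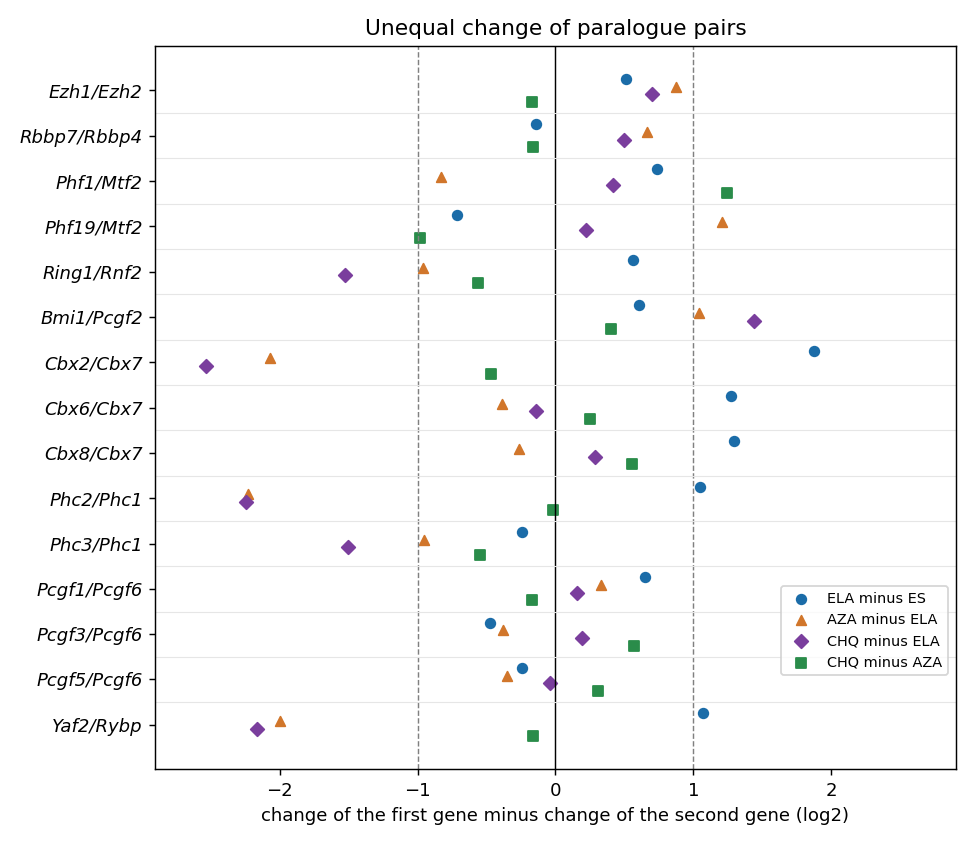
Change of the first gene minus change of the second gene for 15 paralogue pairs in the 4 comparisons (x axis, log2; dashed lines at -1 and 1). Cbx2/Cbx7, Phc2/Phc1 and Yaf2/Rybp lie above 1 for ELA against ES and near or below -2 with both inhibitors.

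Genes with several probes allowed a check within an array. For 10 genes, 12 further probes were well above background on all arrays. They differed from the main probe by a median of 0.18 for ELA against ES, 0.39 for AZA against ELA, 0.37 for CHQ against ELA and 0.09 for CHQ against AZA. The gaps were thus wider in the comparisons that cross the slides. Ezh1 was the 1 gene with opposite signs past 0.5: its main probe differed by 0.57 between AZA and ELA, a dim probe by -1.18 and the remaining probe by 0.20. That dim probe had 7.89 in ES and 8.0 in ELA but 6.82 under AZA and 7.0 under CHQ. Dim probes of Rbbp4 and Cbx6 were also lower on both treated arrays, with differences between -0.98 and -0.92, where their main probes differed by -0.55 and -0.39, and by -0.20 and -0.10. Mtf2's dim probe gave 0.25 for AZA against ELA where the main probe gave 0.99. Eed, Suz12, Phf19, Cbx2, Phc1, Phc2 and Scmh1 had 1 probe each, so no such check exists for them.

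**Figure D4:**
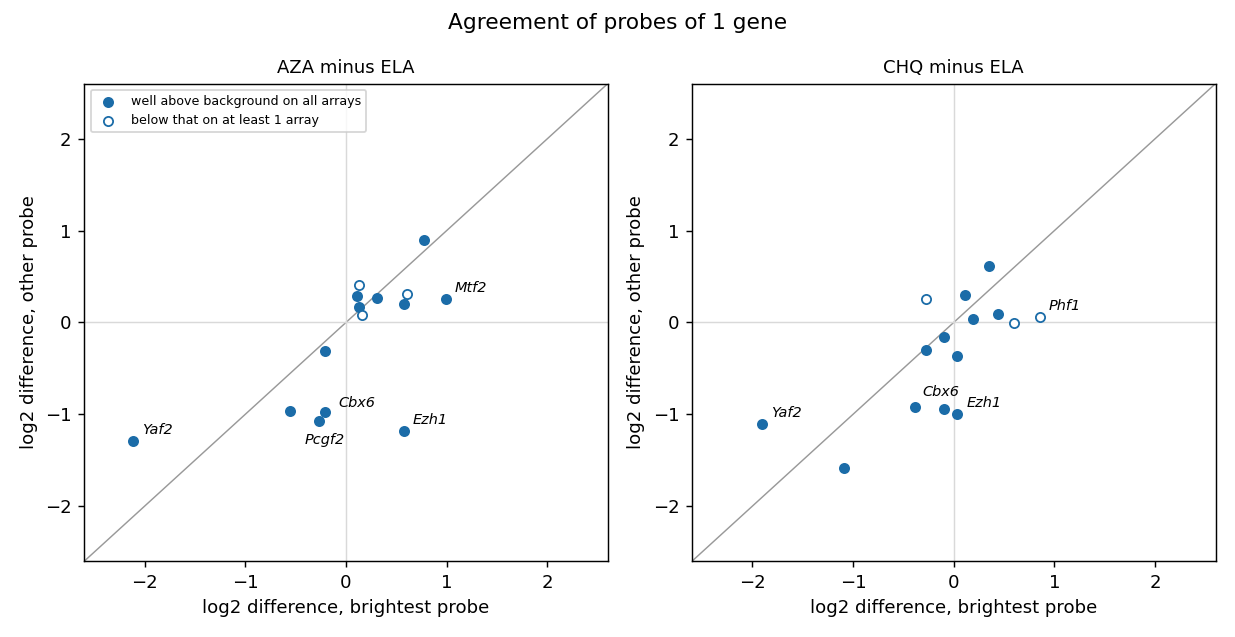
Log2 difference at the other probes of a gene (y axis) against that at its brightest probe (x axis) for AZA and CHQ against ELA; the line marks equality, and open points were not well above background on every array. A dim Ezh1 probe lies at -1.18 against 0.57 with AZA, and the Yaf2 probes lie at -1.29 against -2.11.

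Promoters of 4 members that were called higher with AZA are shown because AZA acts on CpG methylation, for which the count of CpG sites is the relevant sequence feature; methylation itself was not measured on these arrays. They are the 250 bases before the RefSeq start, 5′ to 3′ in the sense of the gene, in build GRCm38.p6, and capitals mark the CCAAT box, spelled by its name, and the GC box, spelled GGGCGG, on either strand. A window was found for 28 of the 32 members, but not for Cbx2 and Yaf2, which were called lower with AZA. Eed, Suz12 and Phc1 were called higher with CHQ as well.
Eed (chr7:89980977-89981226, minus strand): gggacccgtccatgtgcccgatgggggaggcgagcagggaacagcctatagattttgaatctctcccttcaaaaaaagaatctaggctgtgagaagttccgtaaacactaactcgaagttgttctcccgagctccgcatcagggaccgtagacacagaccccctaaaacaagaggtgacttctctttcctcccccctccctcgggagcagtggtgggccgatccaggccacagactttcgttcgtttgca
Suz12 (chr11:79992856-79993105, plus strand): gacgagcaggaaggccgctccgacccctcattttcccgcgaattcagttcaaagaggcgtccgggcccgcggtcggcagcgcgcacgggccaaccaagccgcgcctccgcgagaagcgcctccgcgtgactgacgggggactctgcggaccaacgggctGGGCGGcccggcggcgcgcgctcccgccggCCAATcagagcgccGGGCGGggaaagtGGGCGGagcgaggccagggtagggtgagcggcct
Phf19 (chr2:34913977-34914226, minus strand): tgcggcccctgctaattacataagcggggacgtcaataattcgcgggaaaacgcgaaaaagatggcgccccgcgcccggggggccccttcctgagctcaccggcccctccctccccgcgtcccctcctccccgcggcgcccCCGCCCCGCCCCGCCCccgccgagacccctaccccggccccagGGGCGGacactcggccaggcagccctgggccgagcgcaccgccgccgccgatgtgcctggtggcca
Phc1 (chr6:122340228-122340477, minus strand): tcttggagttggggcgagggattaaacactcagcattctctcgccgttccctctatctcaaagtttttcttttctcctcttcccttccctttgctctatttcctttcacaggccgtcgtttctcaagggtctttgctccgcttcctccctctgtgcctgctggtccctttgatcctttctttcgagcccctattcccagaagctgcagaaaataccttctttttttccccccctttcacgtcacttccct

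These windows held 12 CpG sites for Eed, 37 for Suz12, 31 for Phf19 and 8 for Phc1. The median over all 38 windows of the 28 members was 18.5 sites, beside 6 over all 32851 windows of that length. Scmh1, also called higher with AZA, had a pair of windows with 45 and 0 sites and is not printed. The genes called higher with AZA thus lie on both sides of the members' median, while those called lower had no window. The GC box was present in Suz12 and Phf19 and in 25 of the 38 member windows (65.8%), beside 32.7% of all windows, with overlapping copies in Phf19. The CCAAT box was present in Suz12 and in 12 of the 38 (31.6%), beside 33.8% of all windows. Neither motif was found in the Eed and Phc1 windows. The letters CCGGAAG (an ETS-type site) were in 2 member windows and 6.91% of all windows, and TATAAA (the TATA box) in 1 member window and 12.4% of all windows.

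Other genes of the pathway were read from lists. Of 18 further Polycomb-associated genes with a probe, 1 was called higher and 1 lower in ELA against ES: Auts2 (1.95), a PCGF3 and PCGF5 complex component, and the MBT protein gene Sfmbt2 (-1.96). With AZA 2 were higher and 2 lower, namely Auts2 (-1.47), Scml2 (1.40), Mga (1.33), a PCGF6 complex scaffold, and E2f6 (-1.26). With CHQ 2 were higher and 1 lower, Scml2 (1.87), Mga (1.26) and Auts2 (-1.22), and between CHQ and AZA 0 were called. Over all genes the shares called were 10.1%, 25.7%, 26.7% and 10.4% in these comparisons. Auts2 was thus highest in ELA (12.20, against 10.26 in ES, 10.73 with AZA and 10.98 with CHQ). Of 7 erasers of H3K27 methylation and H2A ubiquitin, the H3K27 demethylase gene Kdm6b alone was called, with CHQ (1.07).

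Textbook Polycomb target genes were mostly dim, and 10 or 11 of 21 could be called in a comparison. In ELA against ES, Foxa2 (1.81) and Wt1 (1.00) were called higher. Foxa2 and Sox17 passed the level of 7.5 only through the arrays where they were high, Foxa2 with 8.63 in ELA against 6.82 in ES and in AZA, and Sox17 with 9.51 in CHQ against 6.77 in ELA, so the sizes of their differences rest on dim values. With AZA 2 were higher and 2 lower, led by the cell cycle inhibitor genes Cdkn2b (2.79) and Cdkn2a (2.26) and by Foxa2 (-1.81). With CHQ 3 were higher and 1 lower, among them Sox17 (2.74), Cdkn2b (2.67) and Cdkn2a (1.62), and Sox17 was called higher in CHQ against AZA (1.75). These 2 of 10, 4 of 11, 4 of 10 and 1 of 10 genes stand beside the shares of 10.1%, 25.7%, 26.7% and 10.4% over all genes. The median of all 21 was -0.03, -0.21, -0.01 and 0.03 in the 4 comparisons, beside -0.02, -0.04, -0.04 and -0.02 for all genes measured on the 4 arrays. Under spike-in scaling the list's medians were -0.38, -0.65, -0.56 and -0.15, beside -0.43, -0.66, -0.89 and -0.23.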

How the data were processed

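Total RNA of 4 groups, 1 array and a pool of 3 experiments each, was hybridised to single-colour arrays. The deposited scanner files hold spot intensities that the authors read with Agilent Feature Extraction (10.7.3.1 per the file headers, 9.1 per the submitters' processing notes), not normalised between arrays. The deposited series table gives the authors' log2 values, corrected and quantile-normalised with limma by them, and was used as an alternative. Mean spot intensity was corrected here by normexp (offset 50; limma 3.58.1, R 4.3.3) on the median local background, quantile-normalised over the 4 arrays on the linear scale and then log2-transformed. The order of log2 before quantile normalisation was tried after values had been seen. It correlated slightly less with the authors' table (r = 0.9991 to 0.9994 against 0.9993 to 0.9996, without offset, over 55122 probes), so the original order was kept and the other is an alternative. Control spots and outlier-flagged spots were dropped, spots of a probe averaged, and a gene read at its probe with the highest mean among those measured on all arrays. With 1 array per group nothing was tested. Every member is named, and values on every array are given for called members, for pairs with a contrast of at least 1 and for members whose probes oppose each other. Members and lists were chosen with earlier results of these data known. The list genes not named are covered by counts, and 1 gene first listed was left out and is not reported here. The calling steps were also run on simulated copies of the ES array with known changes, added noise and a lowered background. Those copies held no variation between experiments, so they cannot show that a call would repeat. Other alternatives were 75th percentile and spike-in scaling, no background correction, no offset, the mean over probes, other filters and a 1.5-fold threshold.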

Additional observations from a re-analysis of the deposited data

How the results depend on the processing

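All 20 calls of members kept their sign under the 7 other ways of computing the values, and 13 stayed past 1 in all of them. Taking log2 before quantile normalisation, an alternative added after the data had been seen, called the same 5, 7, 7 and 1 members and moved no member's difference by more than 0.01. A threshold of 1.5-fold gave 8 members for ELA against ES, 14 for AZA against ELA, 14 for CHQ against ELA and 8 for CHQ against AZA, beside 23%, 46.3%, 48.9% and 25% of all genes. Spike-in scaling gave 2 members for CHQ against AZA, and it moved the median of the members to -0.68, -0.081, -0.48 and -0.33 in these comparisons. It moved 118 of 188 single differences and contrasts by more than the spread of repeated spots (0.21 for a difference and 0.29 for a contrast of a pair), 75th percentile scaling 41, the mean over probes 29, the values of the authors 9, values without offset 6, and the remaining alternatives 0. No paired analysis was possible because each group had 1 array, and for the same reason no replicate could be left out. Signal over background limits Pcgf3, Cbx8 and many of the Polycomb target genes, and the slide limits every comparison of a treated with an untreated array.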
